A study of Mus musculus with 4 samples.

Results

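The immediate early genes described here are 10 genes that cells switch on within minutes of a stimulus: Fos, Fosb, Jun, Junb, Atf3, Egr1, Nr4a1, Zfp36, Dusp1 and Ier2. They were taken by symbol from the 27998 genes of the count tables, and all 10 symbols were found once. The study sequenced single cells of 2 pancreatic tumors from KPC mice of the C57BL/6J background, which carry the conditional alleles KrasLSL-G12D/+ and Trp53LSL-R172H/+ and the Pdx1-Cre transgene. Pdx1-Cre drives recombination in the epithelial lineage of the pancreas, so the stromal cells of these tumors are not the cells in which the alleles are switched on. The tumors were digested with collagenase, liberase and DNase at 37 C and 600 rpm for 45 min, strained, stained, and sorted by flow cytometry into 2 collection tubes. The all live fraction held cells that exclude the dye DAPI, and the sorted CAF (cancer-associated fibroblast) fraction is labelled DAPI-CD45-CD31-EpCAM-PDPN+, although the antibodies named in the labels' protocol (to CD31, CD45, PDPN and PDGFRa) include none to EpCAM. This gave 4 libraries, called all live 1, sorted CAF 1, all live 2 and sorted CAF 2 after the fraction and the tumor, with 2 tumors as replicates of each fraction. Because both fractions were digested, stained and sorted, the effect of these steps on the genes cannot be told apart from the level in the tumor, and only the gates, which differ, can be compared.

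Immediate early genes are transcribed without new protein synthesis, by factors that already sit in the cell and are switched on by growth factors, cytokines, calcium or stress. Their mRNAs are short-lived, so a rise is usually brief. Fos, Fosb, Jun, Junb and Atf3 encode basic leucine zipper proteins that pair into the AP-1 family of transcription factors, Egr1 encodes a zinc finger factor, and Nr4a1 encodes an orphan nuclear receptor. Zfp36 encodes tristetraprolin, which speeds the decay of cytokine mRNAs, and Dusp1 encodes a phosphatase that turns off MAP kinases, so both act as feedback. Ier2 encodes a small nuclear protein of less certain function. In single-cell work the same genes are known to respond to enzymatic digestion of tissue at warm temperature, which is why they are often read as a sign of sample handling.

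The sequence just before the start site was read for the 8 members with an entry in the RefSeq promoter table (build GRCm38.p6): Fos, Fosb, Jun, Junb, Atf3, Zfp36, Dusp1 and Nr4a1. In the 250 bases before the start, 5 motifs were searched on both strands: the CArG box, the site of serum response factor; TGACGTCA, the cyclic AMP response element bound by CREB and ATF proteins; TGANTCA, the AP-1 site; GCGNGGGCG, the EGR site; and TATAAA, the TATA box. No match overlapped another in the windows printed below. The CArG box was found in 1 of the 8 members (Zfp36) and in 1.47% of all 32851 promoters of the same length. TGACGTCA was found in 1 member (Dusp1) and in 1.55% of all promoters, and TATAAA in 1 member (Fos) and in 12.4%. GCGNGGGCG was found in 3 members (Fosb, Nr4a1 and Zfp36) and in 4.70% of all promoters, and TGANTCA in 0 members and in 6.75%. A match is a description of letters in this window and not a bound site. A motif without a match may still lie outside the window or in a variant that the pattern does not cover. Of the windows, 4 are printed 5′ to 3′ on the strand of the gene, with the matched motifs in capitals. Fos is shown because its level tracked the other members most closely, Zfp36 and Atf3 because they changed between fibroblast states, and Dusp1 because it differed between cell classes. The Fos window is chr12:85473640-85473889 on the plus strand, directly before the Fos gene (chr12:85473890-85477273), and its capitals mark TATAAA.
Fos: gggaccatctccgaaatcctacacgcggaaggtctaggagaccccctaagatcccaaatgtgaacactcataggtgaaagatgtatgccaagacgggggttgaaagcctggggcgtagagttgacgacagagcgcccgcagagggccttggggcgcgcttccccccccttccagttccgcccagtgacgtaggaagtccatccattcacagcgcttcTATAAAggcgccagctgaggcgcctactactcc
The Zfp36 window is chr7:28379229-28379478 on the minus strand, and its capitals mark an EGR site 105 to 97 bases before the start and a CArG box 58 to 49 bases before it.
Zfp36: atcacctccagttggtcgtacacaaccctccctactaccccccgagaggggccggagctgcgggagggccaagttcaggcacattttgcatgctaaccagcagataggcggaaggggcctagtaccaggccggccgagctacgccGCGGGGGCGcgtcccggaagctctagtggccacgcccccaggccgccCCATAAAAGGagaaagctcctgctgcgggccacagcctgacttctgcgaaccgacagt
The Dusp1 window is chr17:26508473-26508722 on the minus strand, and its capitals mark TGACGTCA 143 to 136 bases before the start.
Dusp1: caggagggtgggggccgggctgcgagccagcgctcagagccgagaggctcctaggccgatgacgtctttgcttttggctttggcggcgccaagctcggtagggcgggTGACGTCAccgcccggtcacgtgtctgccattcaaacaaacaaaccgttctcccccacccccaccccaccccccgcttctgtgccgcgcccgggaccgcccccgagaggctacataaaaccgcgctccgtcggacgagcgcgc
The Atf3 window is chr1:191183334-191183583 on the minus strand, where none of the 5 motifs was matched.
Atf3: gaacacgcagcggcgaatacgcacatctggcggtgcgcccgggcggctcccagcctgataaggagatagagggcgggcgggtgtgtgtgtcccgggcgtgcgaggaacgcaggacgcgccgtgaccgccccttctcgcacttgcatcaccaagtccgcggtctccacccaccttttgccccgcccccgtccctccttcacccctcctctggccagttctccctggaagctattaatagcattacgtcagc
The Zfp36, Dusp1 and Atf3 windows lie inside the spans that GENCODE M21 gives these genes (chr7:28376784-28380253, chr17:26505590-26562128 and chr1:191170296-191218039), whose longer transcripts start further upstream. G and C made up 58.4% of the Fos window, 65.2% of Atf3, 64.8% of Zfp36 and 68.4% of Dusp1, against a median of 52.4% over all promoters. In GENCODE M21 the genes Jun, Junb, Atf3, Zfp36 and Dusp1 overlap other annotated genes, of which Prdx2 (on the strand opposite to Junb) and Ergic1 (at Dusp1) are protein-coding. The overlapping genes at Jun, Junb, Atf3 and Zfp36, and Ergic1 at Dusp1, lie on the opposite strand. Counting by strand would separate their reads from those of the members, but it is not known here whether this was done. A pseudogene and an intronic transcript lie on the same strand as Dusp1, where strand alone cannot separate reads.

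The 4 libraries held 8282 barcodes and 85230726 unique molecular identifiers (UMIs, each of which tags 1 captured mRNA molecule), with 14972652 to 30950993 UMIs a library and a median of 3287 to 13764 UMIs a barcode. After filters, 7832 cells were kept, and 31 barcode sequences occurred in more than 1 library. Cells were clustered without the members, and a cluster was named "-like" after the listed markers that it held, which gave named classes of fibroblast-, ductal epithelial- (called ductal-like), acinar-, macrophage or monocyte- (called macrophage-like), neutrophil-, dendritic-, T or NK-, B or plasma-, blood endothelial-, pericyte- and mesothelial-like cells. The sorted CAF fraction did not hold fibroblasts alone: ductal-like cells made up 1055 of 1386 cells of sorted CAF 1, where fibroblast-like cells made up 182, while sorted CAF 2 held 898 fibroblast-like and 128 ductal-like cells of 1210. The ductal-like cells of sorted CAF 1 carried little Epcam mRNA, at 4.07 to 9.12 CPM (UMIs of a gene per 1000000 UMIs of the summed cells) in the clusters of 20 cells or more. Leukocyte mRNA was also counted in cells of other classes, more often in the all live fraction: 75.0% and 62.1% of fibroblast-like cells in all live 1 and all live 2, but 14.3% and 26.3% in sorted CAF 1 and sorted CAF 2, held a UMI of Ptprc, Lyz2, S100a8, S100a9 or Tyrobp. For these reasons the fractions were compared within a class, with and without such cells.

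All 10 genes had at least 1 UMI in every named class and library with 20 cells or more, 25 sums in all, the thinnest being Nr4a1 in acinar-like cells of sorted CAF 2 with 1 UMI. Levels are given as CPM, and the summed level of the 10 genes is weighted towards those with the most UMIs. In the all live libraries the summed level was 8581 and 6092 CPM in fibroblast-like cells of tumor 1 and tumor 2, 6715 and 7572 in macrophage-like cells, 4480.3 and 10555 in neutrophil-like cells, and 3395 and 7723 in ductal-like cells. B or plasma-like cells stood at 6984 and 5381, and blood endothelial-like cells, of which there were 21 and 30, at 4949 and 5666. Acinar-like cells, found in tumor 2, were the lowest at 1558 in all live 2 and 1483 in sorted CAF 2. The ranges of these classes over the 2 tumors overlapped for every pair, except that both endothelial sums lay below both fibroblast and both macrophage sums and that the acinar sums lay below all others. Single all live 2 sums of 5356 in dendritic-like and 5928 in T or NK-like cells fell within the range of the other classes.

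Mesothelial-like cells, the lining cells of the abdominal organs, reached 8786 in all live 1, 11041 in sorted CAF 1 and 8127 in sorted CAF 2, and pericyte-like cells, measured in sorted CAF 2, stood at 6192. In sorted CAF 1 the mesothelial-like sum lay above the fibroblast-like sum of 10459, and in all live 1 the values of 8786 and 8581 were close. Over the named classes the highest levels were spread widely: Fos (3180.0) and Dusp1 (1711) in mesothelial-like cells of sorted CAF 1, Jun (1749) and Egr1 (681) in fibroblast-like cells of sorted CAF 1, Atf3 (740.4) in ductal-like cells of all live 2, and Junb (3657) in neutrophil-like cells of all live 2. The lowest levels of 7 genes were in acinar-like cells, while Fosb was lowest in neutrophil-like cells of all live 1 (110.1), and Atf3 (37.6) and Egr1 (75.3) were lowest in B or plasma-like cells of all live 1. A group of 27 cells of sorted CAF 2 that matched no marker list, with Adipoq, Car3, Cfd and Retn in the lead, had a summed level of 11726, with Egr1 at 1272 and Jun at 2447, above the level of either gene in any named class.

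**Figure D1:**
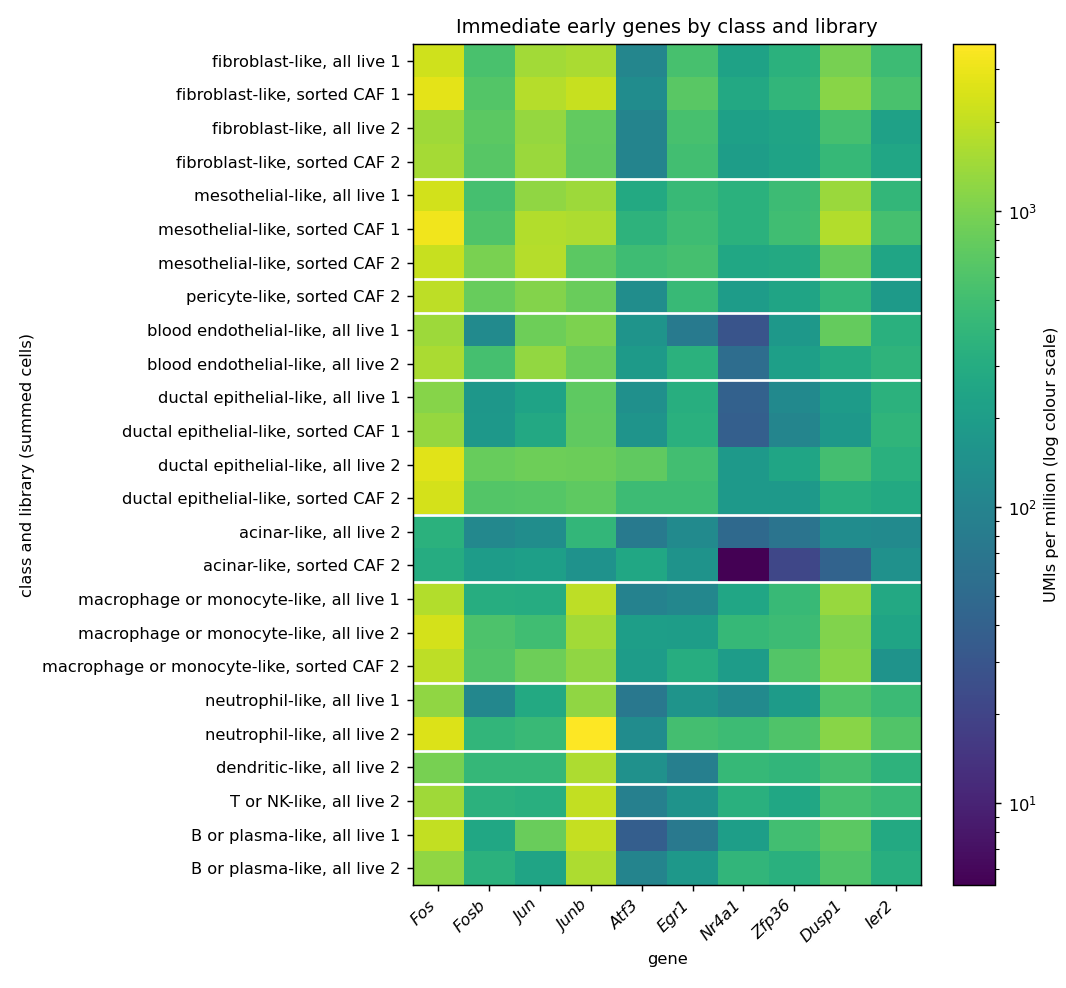
Each row is the summed cells of a class in a library with 20 cells or more, each column is a gene, and the colour gives its CPM on a log scale. Fos and Junb are bright in most rows, the 2 acinar-like rows are darkest for most genes, and Jun and Egr1 are brighter in fibroblast-like than in macrophage-like rows of both all live libraries.

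Fibroblast-like, ductal-like and macrophage-like cells were compared across the 2 all live libraries, in 1 edgeR quasi-likelihood fit of 6 sums over 11503 genes with Benjamini-Hochberg adjustment. Egr1 was higher in fibroblast-like than in macrophage-like cells, and Zfp36 and Dusp1 were lower in ductal-like than in macrophage-like cells. No member passed the test between fibroblast-like and ductal-like cells, where 2 members were under 0.05 before adjustment and Atf3 alone was called by DESeq2, which called 2017 of the 11503 genes. The background was high: 13.7% of all genes were called between fibroblast-like and ductal-like cells, 19.9% between fibroblast-like and macrophage-like cells, and 21.7% between ductal-like and macrophage-like cells, so 0, 1 and 2 of 10 members are near or below these shares. Between ductal-like and macrophage-like cells DESeq2 called 4 members, Junb and Nr4a1 besides these 2, and 2873 of the 11503 genes. With the tumor as a block the counts were 2, 2 and 5 members, in the same order, against 21.8%, 26.7% and 30.0% of all genes.

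Among the AP-1 genes, Fos stood at 2294 and 1451 CPM in fibroblast-like cells of all live 1 and all live 2, at 1105 and 2722 in ductal-like cells, and at 1714 and 2409 in macrophage-like cells. The groups overlapped, and Fos was higher in fibroblast-like than in ductal-like cells of tumor 1 and lower in tumor 2. Jun stood at 1473 and 1307 CPM in fibroblast-like cells of all live 1 and all live 2, at 234 and 863 in ductal-like cells, and at 302 and 498 in macrophage-like cells. Jun was higher in fibroblast-like cells than in both other classes in each tumor, by 1.56 ± 0.56 (log2 difference ± SE) against macrophage-like cells (edgeR adjusted p = 0.102, and 1.65 ± 0.43 with the tumor as a block, adjusted p = 0.0255). Against ductal-like cells the Jun difference was 1.33 ± 0.56 (edgeR adjusted p = 0.17), and 1.52 ± 0.44 with the block (adjusted p = 0.0428). Junb stood at 1596 and 767 CPM in fibroblast-like cells of all live 1 and all live 2, at 721 and 832 in ductal-like cells, and at 1913 and 1459 in macrophage-like cells. Junb was lower in ductal-like than in macrophage-like cells of both tumors, by a log2 difference of -1.26 ± 0.44 (SE) that did not pass the edgeR test (adjusted p = 0.0865), and did with the block (-1.24 ± 0.35, adjusted p = 0.0308). Atf3 stood at 107 and 102 CPM in fibroblast-like cells of all live 1 and all live 2, at 143 and 740.4 in ductal-like cells, and at 95.5 and 208 in macrophage-like cells. The ductal-like cells of tumor 2 stood apart from the other 5 Atf3 sums, and the log2 difference of fibroblast-like from ductal-like cells was -2.06 ± 0.71 (SE) (edgeR adjusted p = 0.104, and 0.0423 at -1.72 ± 0.49 with the block). Fosb stood at 560.3 and 705 CPM in fibroblast-like cells of all live 1 and all live 2, at 169 and 792 in ductal-like cells, and at 309 and 596 in macrophage-like cells. The classes overlapped, and the Fosb log2 differences, between -0.17 and 0.41 with an SE of 0.64, passed none of the 3 comparisons.

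Of the other transcription factors, Egr1 stood at 551 and 545 CPM in fibroblast-like cells of all live 1 and all live 2, at 322 and 499.8 in ductal-like cells, and at 109 and 202 in macrophage-like cells. Both macrophage-like sums of Egr1 lay below all 4 others, and the difference of fibroblast-like cells was 1.58 ± 0.43 (SE) on the log2 scale, or 2.98-fold (edgeR adjusted p = 0.0405). With cells thinned to 1500 UMIs each before summing, the Egr1 difference was 1.46 ± 0.48 (SE) with an edgeR adjusted p of 0.056. Nr4a1 stood at 227 and 218 CPM in fibroblast-like cells of all live 1 and all live 2, at 40.1 and 179 in ductal-like cells, and at 251 and 418 in macrophage-like cells. Nr4a1 was lower in ductal-like cells than in both other classes of its own tumor, and the log2 difference from macrophage-like cells was -1.87 ± 0.62 (SE) (edgeR adjusted p = 0.0727, and 0.0124 at -2.01 ± 0.46 with the block). The feedback genes both passed in this comparison. Zfp36 stood at 341 and 239 CPM in fibroblast-like cells of all live 1 and all live 2, at 118 and 244 in ductal-like cells, and at 429.5 and 474 in macrophage-like cells. Dusp1 stood at 959 and 535 CPM in fibroblast-like cells of all live 1 and all live 2, at 191 and 518 in ductal-like cells, and at 1320.1 and 1064 in macrophage-like cells. For both genes the 2 macrophage-like sums lay above the 2 ductal-like sums, and the log2 differences of ductal-like cells were -1.51 ± 0.41 (SE) for Zfp36 (edgeR adjusted p = 0.0384) and -1.96 ± 0.50 (SE) for Dusp1 (edgeR adjusted p = 0.0303). Ier2 stood at 473 and 225 CPM in fibroblast-like cells of all live 1 and all live 2, at 352 and 332 in ductal-like cells, and at 272 and 243 in macrophage-like cells. Both extremes of Ier2 were in fibroblast-like cells, and it passed no test.

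The 2 tumors differed in which ductal-like cells they held, and the summed level of the 10 genes differed between clusters of these cells. In tumor 1, where the ductal sum was 3395 in all live 1 and 3676 in sorted CAF 1, 4 clusters with little Epcam held most of the cells. Of these, the cluster led by cell cycle genes (Cdc20, Rrm2, Aurka) gave 2668 CPM for all live 1 and 3017 for sorted CAF 1, the cluster led by Adh7, Cyp2s1 and Ttr gave 3198 and 3676, and the cluster led by Tff1, Fabp2 and Gsta1 gave 1940.3 and 2929. The fourth, led by Npy, Chrna1 and Cpe, was higher at 5797 and 5449.9. An Epcam-rich cluster led by Mmp7 and Wfdc18 was measured in both tumors, with 8372 in all live 1 (31 cells) and 8638 in all live 2 (120 cells). Within this cluster the summed level of the 2 tumors was thus close, while over all ductal-like cells in the all live fraction it was higher in tumor 2. Members differed inside the shared cluster: Atf3 was 596 and 897, Fosb 424 and 842, and Nr4a1 77.6 and 184 in tumor 1 and tumor 2, while Junb was 1425 and 938 and Ier2 718 and 377. The remaining tumor 2 cluster, led by Crisp1, Cldn18 and Tff2, stood at 6726 in all live 2 and 6295 in sorted CAF 2. With 1 tumor on each side these differences have no replicate check, and the part of the cluster mix in the difference between tumors was not tested.

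The comparison of the 2 fractions asks whether passing the CAF gate goes with a different level of these genes. Within fibroblast-like cells it did not reach the test for any of the 10: the fitted log2 differences of sorted CAF from all live were 0.04 to 0.25, with SEs of 0.27 to 0.55, and their median was 0.12 against 0.00 over all 8878 genes. In tumor 1 all 10 genes were higher in the sorted CAF fraction, by 0.18 to 0.39 on the log2 scale, but in tumor 2 only 3 were higher and 7 lower, between -0.32 and 0.17. Within tumor 2 the direction differed between groups of fibroblast-like cells described further on. In myofibroblast-like cells all 10 genes were higher in sorted CAF 2 than in all live 2 (Fos 1156 against 615 CPM, Atf3 62.3 against 18.9). In subcluster 5 the summed level was lower (5457 against 9869.6). These all live 2 values rest on 36 and 21 cells and have no test. The edgeR quasi-likelihood test called 0 members and 0 genes (0%) at an adjusted p of 0.05, 63 genes but 0 members stood at an unadjusted p under 0.05, and 18 genes but 0 members were called by DESeq2. With the tumor as a block 82 genes were called (0.924%), none of them a member, and 0 members had an unadjusted p under 0.05. In the comparisons of fractions, a block fit of 4 libraries holds little spread of its own for each gene. Its p-values rest largely on a spread shared over all genes.

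Fos stood at 2294 in all live 1, 2794 in sorted CAF 1, 1451 in all live 2 and 1501 in sorted CAF 2, in CPM of fibroblast-like cells. Jun stood at 1473 in all live 1, 1749 in sorted CAF 1, 1307 in all live 2 and 1374 in sorted CAF 2, and Junb at 1596 in all live 1, 2089 in sorted CAF 1, 767 in all live 2 and 732 in sorted CAF 2. For these genes both tumor 1 libraries lay above both tumor 2 libraries, whichever the fraction. Dusp1 stood at 959 in all live 1, 1148 in sorted CAF 1, 535 in all live 2 and 428 in sorted CAF 2, and Ier2 at 473 in all live 1, 564 in sorted CAF 1, 225 in all live 2 and 252 in sorted CAF 2. The log2 difference of sorted CAF from all live was thus 0.26 for Dusp1 in tumor 1 and -0.32 in tumor 2. Atf3 stood at 107 in all live 1, 127 in sorted CAF 1, 102 in all live 2 and 102 in sorted CAF 2, with the 2 tumor 2 values close together. Egr1 stood at 551 in all live 1, 681 in sorted CAF 1, 545 in all live 2 and 511 in sorted CAF 2, and Nr4a1 at 227 in all live 1, 277 in sorted CAF 1, 218 in all live 2 and 202 in sorted CAF 2. Fosb was the 1 gene whose tumor 2 libraries lay above its tumor 1 libraries: 560.3 in all live 1, 636 in sorted CAF 1, 705 in all live 2 and 675 in sorted CAF 2. Zfp36 stood at 341 in all live 1, 395 in sorted CAF 1, 239 in all live 2 and 237 in sorted CAF 2. Tumor 1 libraries were above tumor 2 libraries for 9 of the 10 genes, a difference between 2 animals that has no test here.

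**Figure D2:**
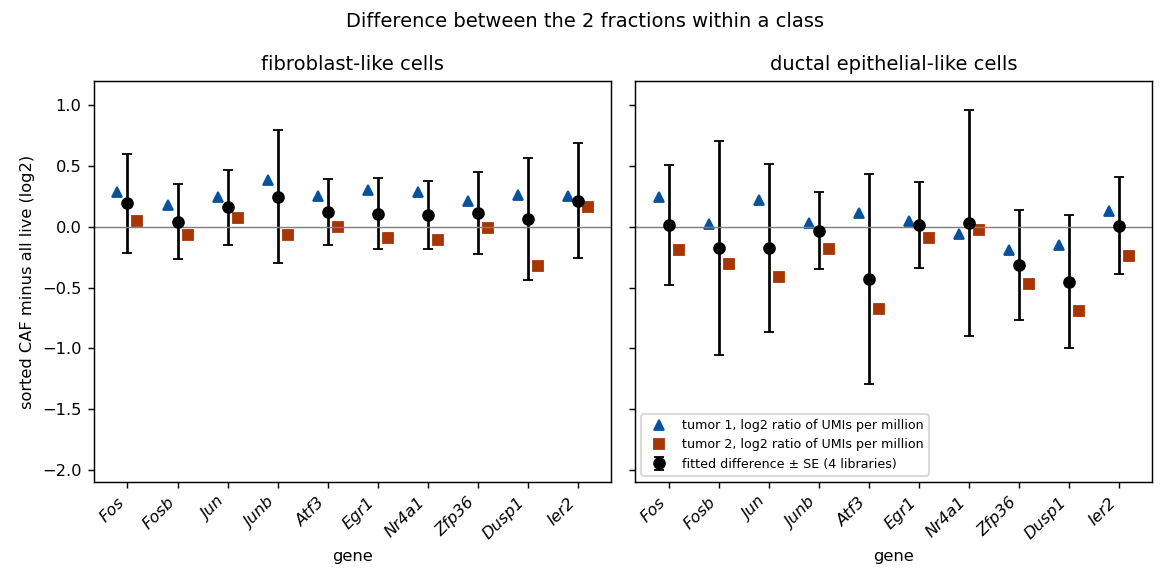
Each column is a gene and the vertical axis is the log2 difference of sorted CAF from all live in fibroblast-like (left) and ductal-like cells (right). Triangles and squares are the ratios of CPM within tumor 1 and tumor 2, and black points are the edgeR estimates over 4 libraries with bars of 1 SE. In fibroblast-like cells all triangles lie above 0 and 7 of 10 squares below it, and every bar crosses 0 in both panels.

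In ductal-like cells the fitted log2 differences were -0.45 to 0.03, with a median of -0.10 against 0.01 over 12251 genes. Here too edgeR called 0 members and 0 genes (0%), with 93 genes and 0 members at an unadjusted p under 0.05 and 32 genes and 0 members by DESeq2, and with the tumor as a block 137 genes (1.12%) and 0 members. In tumor 1, 7 members were higher in the sorted CAF fraction (-0.19 to 0.24), and in tumor 2 all 10 were lower (-0.69 to -0.03). Dusp1 stood at 191 in all live 1, 172 in sorted CAF 1, 518 in all live 2 and 321 in sorted CAF 2, and was lower in the sorted fraction of both tumors. Zfp36, also lower in both, stood at 118 in all live 1, 103 in sorted CAF 1, 244 in all live 2 and 176 in sorted CAF 2. Atf3 was 143 and 154 in all live 1 and sorted CAF 1 but 740.4 and 464 in all live 2 and sorted CAF 2. The clusters behind these sums differed in tumor 2: the Epcam-rich cluster made up 120 of the 172 ductal-like cells of all live 2, and the cluster led by Crisp1, Cldn18 and Tff2 made up 93 of the 128 of sorted CAF 2. Within that Crisp1 cluster Atf3 was 502 in all live 2 and 503 in sorted CAF 2, Dusp1 271 and 312, and Zfp36 236 and 182. The cells of this cluster were not alike in the 2 fractions, with Epcam at 590 CPM in all live 2 and 39.4 in sorted CAF 2. Over all ductal-like cells, 2.91% in all live 2 and 62.5% in sorted CAF 2 held a UMI of the fibroblast marker Col1a1. The part of these differences in the members' levels was not tested.

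The share of cells with leukocyte mRNA differed between the fractions: 92.0% and 73.8% of ductal-like cells of all live 1 and all live 2 held a leukocyte UMI, against 4.08% and 27.3% in sorted CAF 1 and sorted CAF 2. With such cells left out, the log2 differences of the members ranged from -0.02 to 0.37 in fibroblast-like and from -1.08 to 0.55 in ductal-like cells, and edgeR again called 0 members. With those cells left out and the tumor as a block, Dusp1 in ductal-like cells was called, at -0.96 ± 0.26 (SE, edgeR adjusted p = 0.0389), against 116 of 8392 genes (1.38%), an alternative added after seeing the data. The part of leukocyte mRNA in the remaining differences was not tested. The difference of the fraction effect between the 2 classes (fibroblast-like minus ductal-like) was 0.08 to 0.57 on the log2 scale for the 10 genes, above 0 for all of them, and edgeR called 0 members and 0 of 11291 genes (0%), with 67 genes and 0 members at an unadjusted p under 0.05, and 0 genes with the block or by DESeq2. In mesothelial-like cells of tumor 1, with 117 cells in all live 1 and 141 in sorted CAF 1, 9 of 10 genes were higher in sorted CAF 1, at -0.02 to 0.47 on the log2 scale. This is 1 tumor, with no test. Over whole libraries, where the shares of cell classes differ and a shift in these shares cannot be told apart from a change per cell, the members' log2 differences were -0.89 to 0.79, with 0 members and 0 of 14031 genes called by edgeR with or without the block (0%), 539 genes at an unadjusted p under 0.05, and 437 genes by DESeq2. An exact permutation test of 2 libraries against 2 cannot go below p = 0.33, so it could not reach the threshold for any single gene.

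Fibroblasts of pancreatic tumors fall into states, of which the best known are inflammatory fibroblasts, which secrete cytokines and chemokines, and contractile myofibroblasts, which express Acta2. The fibroblast-like cells were clustered again without the members, the wider response lists and inducible cytokine genes, which gave 9 subclusters. Subclusters 7 and 8 were inflammatory-like, each with 6 markers outside the inducible Il6, Cxcl1 and Ccl2, and subclusters 1 and 4 were myofibroblast-like, of which subcluster 1 was led by cell cycle genes. All 10 immediate early genes had a fitted level above that of myofibroblast-like cells in the inflammatory-like cells, with a median log2 difference of 0.87 against 0.01 over 9671 genes. The summed level was 9395 and 9375 CPM in inflammatory-like cells of tumor 1 and tumor 2 (35 and 293 cells), and 6354 and 4607 in myofibroblast-like cells (62 and 347 cells). Atf3 and Zfp36 rose past the edgeR threshold, 2 of the 10, against 4.26% of all genes (2.17% in the higher direction, and 2.22% of the 9125 genes that the subclusters did not use), and DESeq2 called the same 2. With the tumor as a block, 9 of 10 passed, all but Ier2, against 15.9% of all genes (8.40% in the higher direction, and 12.8% of genes that the subclusters did not use). This block fit of 4 sums holds little spread of its own for each gene. Its p-values rest on a spread shared over all genes and do not measure how far the 2 tumors differ. With sums per library in place of tumor, which treats libraries of 1 tumor as independent, 7 members passed, against 966 of 5151 genes (18.8%). That fit held inflammatory-like sums of tumor 2 alone, because all live 1 and sorted CAF 1 had 18 and 17 such cells, under the minimum of 20. State and tumor are therefore partly mixed in it.

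Atf3 stood at 41.1 and 59.8 CPM in myofibroblast-like cells of tumor 1 and tumor 2 and at 178 and 229.6 in inflammatory-like cells. Both inflammatory-like values lay above both myofibroblast-like values, by 2.08 ± 0.37 (SE) on the log2 scale, or 4.22-fold (edgeR adjusted p = 0.00984). Most cells behind the tumor 2 values are of sorted CAF 2. In all live 2 alone Atf3 was 18.9 CPM, from 5 UMIs, in 36 myofibroblast-like cells and 135 in 31 inflammatory-like cells. Zfp36 stood at 155 and 140.0 CPM in myofibroblast-like cells of tumor 1 and tumor 2 and at 522 and 451 in inflammatory-like cells, and the groups were apart as well, at 1.79 ± 0.33 (SE) or 3.45-fold (edgeR adjusted p = 0.0111). With a finer clustering of the cells, fewer than 20 cells of tumor 1 were named myofibroblast-like, so that state had a sum of tumor 2 alone. The Zfp36 log2 difference was then 1.78. Dusp1, the other feedback gene, stood at 644 and 301 CPM in myofibroblast-like cells of tumor 1 and tumor 2 and at 1076 and 803 in inflammatory-like cells. Its log2 difference was 1.06 ± 0.40 (SE) (edgeR adjusted p = 0.232, and 5.3e-05 at 1.16 ± 0.25 with the block).

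Of the other AP-1 genes, Fos stood at 1739.6 and 1125 CPM in myofibroblast-like cells of tumor 1 and tumor 2 and at 2456 and 2333 in inflammatory-like cells. Jun stood at 1122 and 1113 CPM in myofibroblast-like cells of tumor 1 and tumor 2 and at 1642 and 1955 in inflammatory-like cells. In each case the 2 inflammatory-like values lay above the 2 myofibroblast-like values. Fosb stood at 382 and 525 CPM in myofibroblast-like cells of tumor 1 and tumor 2 and at 499 and 1008 in inflammatory-like cells, and Junb at 1171 and 613 CPM in myofibroblast-like cells of tumor 1 and tumor 2 and at 1594 and 1048 in inflammatory-like cells. For these genes the groups overlapped, because the lower of the inflammatory-like values lay below the higher of the myofibroblast-like values, although each tumor showed the same direction. The log2 differences were 0.81 ± 0.35 (SE) for Fos, 0.76 ± 0.33 (SE) for Jun, 0.83 ± 0.42 (SE) for Fosb and 0.62 ± 0.39 (SE) for Junb. Without the block their edgeR adjusted p-values were 0.318, 0.328, 0.423 and 0.57, and with it 0.0109, 0.0245, 0.0177 and 0.0418, in the same order. Egr1 stood at 498 and 347 CPM in myofibroblast-like cells of tumor 1 and tumor 2 and at 736 and 921 in inflammatory-like cells, and Nr4a1 at 169 and 161 CPM in myofibroblast-like cells of tumor 1 and tumor 2 and at 292 and 295 in inflammatory-like cells. Neither overlapped between states, with log2 differences of 1.06 ± 0.36 (SE) and 0.91 ± 0.32 (SE) and edgeR adjusted p-values of 0.156 and 0.185 (0.000221 and 0.00126 with the block). Ier2 stood at 433 and 222 CPM in myofibroblast-like cells of tumor 1 and tumor 2 and at 399 and 333 in inflammatory-like cells, and was the 1 member that was lower in inflammatory-like cells of tumor 1, at a fitted 0.23 ± 0.38 (SE) (edgeR adjusted p = 0.886, and 0.416 with the block).

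**Figure D3:**
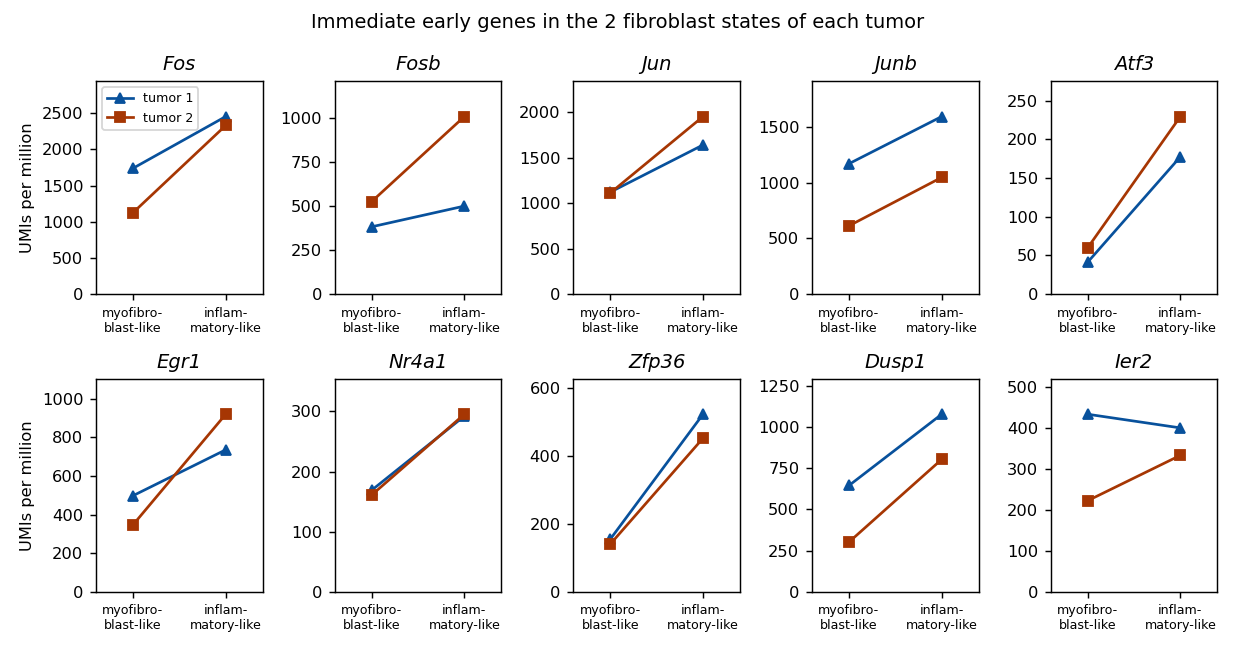
Each panel is a gene, the vertical axis is CPM from 0, and each line joins the myofibroblast-like and inflammatory-like sums of the same tumor. Of the 20 lines 19 slope upward, the exception being Ier2 of tumor 1, and Atf3 and Zfp36 show the largest fold differences.

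The difference between states was seen in both fractions: the summed level was 8626 and 10401 CPM in inflammatory-like cells of all live 1 and sorted CAF 1 against 6210.3 and 6554 in myofibroblast-like cells, and 9336 and 9377 against 3214 and 4691 in all live 2 and sorted CAF 2. The tumor 1 inflammatory-like sums rest on 18 and 17 cells. The states also differed in depth: the median was 6752 and 9460 UMIs a cell in inflammatory-like cells of tumor 1 and tumor 2, and 10612 and 11536 in myofibroblast-like cells. With cells thinned to at most 1500 UMIs before summing, the members' differences were 0.50 to 2.43 (median 1.24). In this setting edgeR called Atf3 and Zfp36 without the block, against 4.12% of the 4052 genes then tested, and 6 members with it, against 9.30%. The median mitochondrial share was 2.94% and 3.30% in inflammatory-like cells and 2.31% and 3.17% in myofibroblast-like cells. The 7 neutrophil markers summed to 152 and 114 CPM in inflammatory-like and 92.2 and 109.9 in myofibroblast-like cells, with Cxcr2 at 0 in all 4 sums, and the 9 macrophage markers to 92.5 and 23.8 and to 45.4 and 37.4. The 7 mesothelial markers were higher in inflammatory-like cells of both tumors, at 178 and 166 CPM against 92.2 and 62.8 in myofibroblast-like cells. Of the 7, 2 and 5 were detected in the former and 4 and 5 in the latter, with Lrrn4 at 0 in all 4 sums and Upk3b in 3. The 9 ductal markers summed to 159 and 29.7 CPM in inflammatory-like and 214 and 56.8 in myofibroblast-like cells. The part of mesothelial or ductal mRNA in the difference between states was not tested. With cells holding a leukocyte UMI left out, the members' differences were 0.21 to 2.12. Too few inflammatory-like cells of tumor 1 then remained for a sum, so that state came from tumor 2 alone. In tumor 2 the myofibroblast-like summed level was much the same with and without cell cycle genes in the lead, at 4832 in subcluster 1 and 4484 in subcluster 4.

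The highest summed level of any fibroblast-like subcluster was in subcluster 3, which was led by Gpnmb, Cpxm2 and Mmp11. It has no name because it held fewer than 3 markers of a state. The list it matched best was that of myofibroblasts, with 2 markers, Col12a1 and Igfbp3. The comparison of inflammatory-like with myofibroblast-like cells above left this subcluster out. Subcluster 3 held 174 of the 330 fibroblast-like cells of tumor 1 and 5 cells of tumor 2, and stood at 12829 CPM in all live 1 and 13779.7 in sorted CAF 1. In tumor 1 this compares with 6349.8 in myofibroblast-like subcluster 4 and 7414 in unnamed subcluster 5 (led by Gng8, Fmo2 and Abcc9). Fos reached 3532 and Junb 2654 CPM in subcluster 3, against 1710.1 and 1182 in subcluster 4 of tumor 1. Dusp1 was 1600.5 against 659, Zfp36 537 against 149, and Atf3 174 against 35.8. In the 35 inflammatory-like cells of tumor 1, Zfp36 (522) and Atf3 (178) were close to their levels in subcluster 3. Fos (2456), Junb (1594), Dusp1 (1076) and the summed level (9395) were lower there than in subcluster 3. The 7 neutrophil markers summed to 410.1 and 319.9 CPM in subcluster 3 of all live 1 and sorted CAF 1, against 97.3 and 108 in subclusters 4 and 5 of tumor 1. The median depth was 6092 UMIs a cell in subcluster 3 of tumor 1, 10138 in subcluster 4 and 6564 in subcluster 5. Of these markers, S100a8 and S100a9 stood at 1.56 and 0.78 CPM in all fibroblast-like cells of sorted CAF 1, a library with 0 neutrophil-like cells. The part of depth and of the marker mRNA in the result was not tested. In tumor 2 the inflammatory-like subclusters 7 (led by Cxcl13, Ear2 and Fam150b) and 8 (led by Angptl1, Krtdap and Sema3c) stood at 9989 and 8129.8. Subcluster 5 stood at 5791, but its libraries were apart, at 9869.6 in all live 2 (21 cells) and 5457 in sorted CAF 2 (118 cells). The former is close to the 9918 of subcluster 7 in all live 2 (26 cells). In tumor 2 subclusters 1, 6, 4 and 2 lay between 4456 and 4832. Atf3 was 209 in subcluster 7 and 272 in subcluster 8, and Zfp36 513 and 327. The summed level was also higher in tumor 1 in the 2 subclusters with a value in both tumors: 6349.8 against 4484 in subcluster 4, and 7414 against 5791 in subcluster 5. In inflammatory-like cells, subclusters 7 and 8 together, the tumors were close, at 9395 in tumor 1 and 9375 in tumor 2. With 174 cells of tumor 1 and 5 of tumor 2 in subcluster 3, its level cannot be told apart from the tumor.

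**Figure D4:**
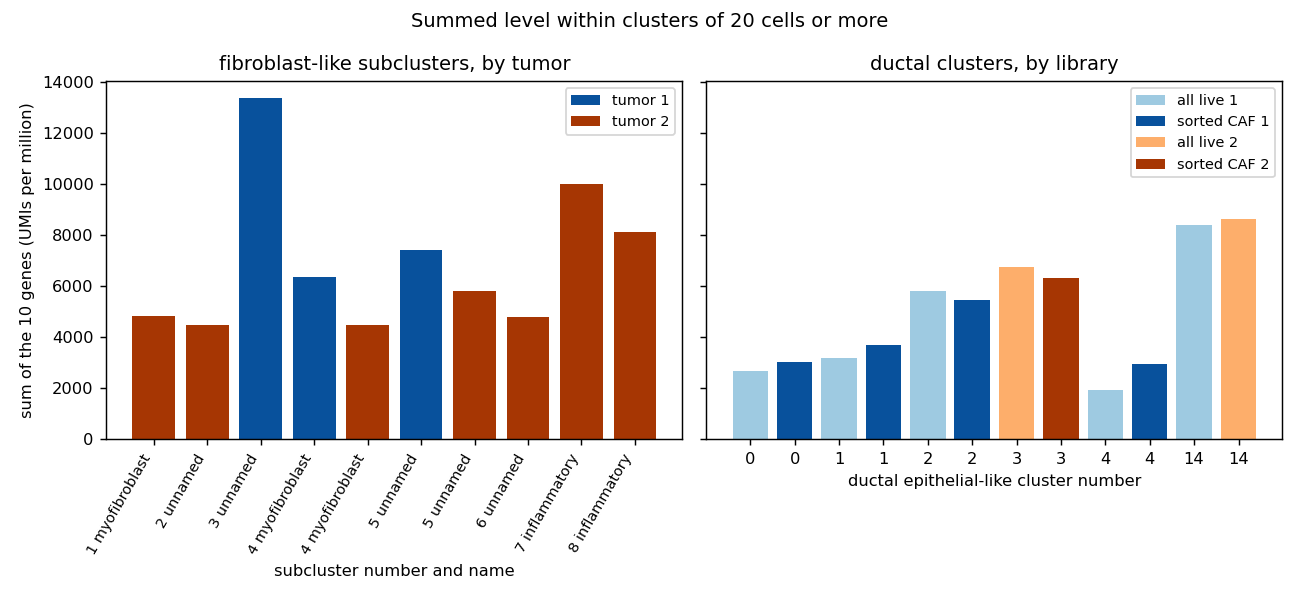
Bars start at 0 and give the summed CPM of the 10 genes in fibroblast-like subclusters by tumor (left) and in ductal-like clusters by library (right), for groups of 20 cells or more. Subcluster 3 of tumor 1 is the tallest at 13353, and ductal cluster 14, rich in Epcam, reaches 8372 and 8638 in the 2 tumors while the highest value of clusters 0, 1 and 4 in tumor 1 is 3676.

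Cell by cell, the genes were widely but unevenly detected. After each cell was thinned to 1500 UMIs, so that depth did not differ, 4.73% and 4.40% of fibroblast-like cells of all live 1 and sorted CAF 1 held no UMI of any of the 10 genes, against 11.2% and 13.8% in all live 2 and sorted CAF 2. Between 43.9% and 64.3% of fibroblast-like cells held 5 or more of the genes. The share of cells without any was similar in the 2 fractions of a tumor. In ductal-like cells it was 8.72% in all live 2 and 32.8% in sorted CAF 2, while tumor 1 gave 19.6% and 18.2%. Macrophage-like cells seldom lacked all 10 (1.22% in all live 1 and 1.71% in all live 2). Within fibroblasts, 2.86% and 2.73% of inflammatory-like cells of tumor 1 and tumor 2 held none, against 12.9% and 17.9% of myofibroblast-like cells, and 65.7% and 69.3% against 41.9% and 30.8% held 5 or more. No class here is known to lack these genes. In acinar-like cells, where they were lowest, Fos was detected at 1500 UMIs in 28.4% of cells of all live 2 (unthinned 52.3%, median depth 4749 UMIs), against 65.5% of fibroblast-like cells (unthinned 81.9%, median depth 5278 UMIs).

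The genes varied together from cell to cell over cells that share a library. The median Spearman correlation over the 45 pairs of members was 0.30 to 0.33 in fibroblast-like cells of the 4 libraries (116 to 898 cells at 1500 UMIs). In ductal-like cells it was 0.23 and 0.19 in all live 1 and sorted CAF 1, and 0.31 and 0.34 in all live 2 and sorted CAF 2. It was 0.10 and 0.12 in macrophage-like cells of all live 2 and all live 1 (1876 and 492 cells), and 0.23 in the 24 of sorted CAF 2. Fos and Jun were the most correlated pair in fibroblast-like cells of every library, at 0.65 to 0.75. Fos and Dusp1 were that pair in macrophage-like cells, at 0.35 and 0.42 in all live 2 and all live 1 and at 0.64 in sorted CAF 2. The partner of Fos in ductal-like cells was Egr1 in tumor 1 (0.41 and 0.47) and Fosb in tumor 2 (0.53 and 0.65). The 10% of fibroblast-like cells with the most member UMIs held 25.7% to 30.4% of all member UMIs, and the highest single cell held 62 in sorted CAF 1.

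**Figure D5:**
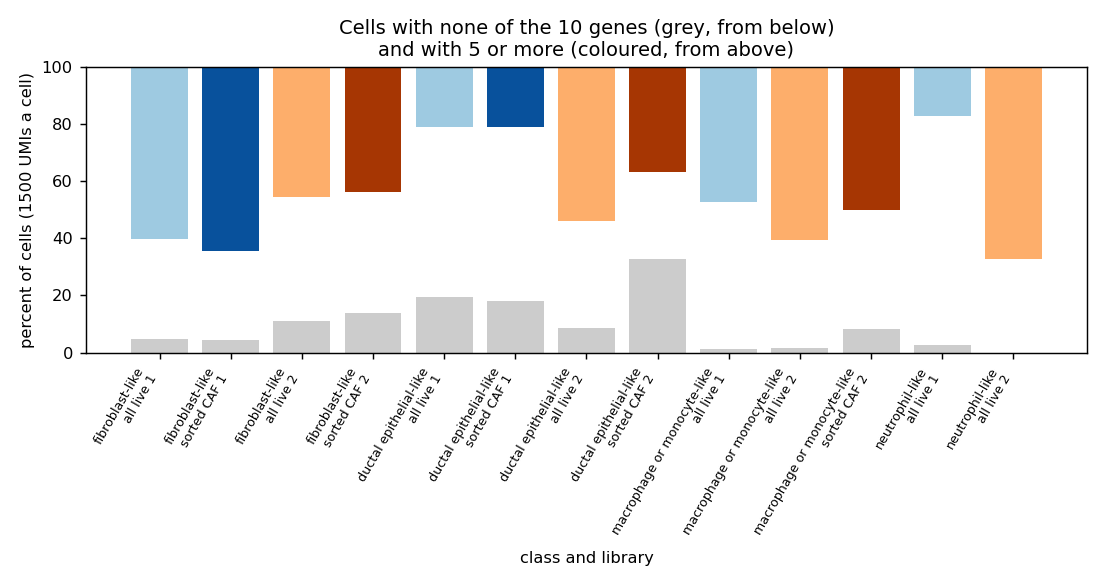
For each class and library, the grey bar from below is the percent of cells, thinned to 1500 UMIs, with none of the 10 genes, and the coloured bar from above is the percent with 5 or more, both on 1 axis from 0 to 100. Grey bars stay at or below 13.8 in fibroblast-like cells, while sorted CAF 2 ductal-like cells reach 32.8.

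Over the 25 class and library sums, Fos tracked the mean of the other 9 members most closely (Pearson r = 0.92) and Atf3 least (r = 0.17), with Zfp36 at 0.81, Dusp1 at 0.80, Nr4a1 at 0.74, Fosb at 0.69, Jun at 0.66, Junb at 0.62, Egr1 at 0.48 and Ier2 at 0.47. The sums share libraries, tumors and depth, so these values describe them and carry no p. The other genes closest to the mean of all 10 members, among 8359 with a mean of at least 10 CPM, included Klf4 (r = 0.88), Stat3 (0.87), Nfkbiz (0.87), Rbms1 (0.86), Tmem127 (0.85), Sp3 (0.83), 1810037I17Rik (0.83), Dnajb9 (0.82) and Osbp (0.82). Klf4, a Krüppel-like transcription factor, and Nfkbiz, a nuclear inhibitor of NF-kB, are also in the wider lists of early genes, and the others named here are not.

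The wider lists held 67 other early response and chaperone genes, of which 66 were in the count tables. Between fibroblast states, the 7 tested AP-1 and bZIP factors had a median log2 difference of 0.35 and the 12 tested early transcription factors 0.23, against 0.87 for the 10 members and 0.01 for all genes, and edgeR called 0 of either list, with 1 and 2 genes at an unadjusted p under 0.05. Of the 3 most abundant AP-1 and bZIP factors, Jund was 1.02 ± 0.25 (log2 difference ± SE) with the tumor as a block and was then called, while Cebpb (0.22) and Atf4 (0.07) were not (log2 differences without the block). Among the early transcription factors Klf4 (1.29 ± 0.24) and Klf2 (0.77 ± 0.24) were called with the block and Klf6 (0.37 without it) was not. The other calls of these lists with the block, named after their values were seen, were Fosl2 (0.72 ± 0.26) and Myc (1.31 ± 0.27), both higher. Of 29 other early response and feedback genes, edgeR called 3 without the block: Socs3, a feedback inhibitor of cytokine receptors (1.47 ± 0.36), and Zfp36l1, a relative of Zfp36 (1.73 ± 0.42), rose, and Dusp4, a relative of Dusp1 (-5.06 ± 1.14), fell, the latter 2 named after their values were seen. With the block 10 of the 29 were higher and 5 lower, the lower ones (also named after the fact) being Ctgf (-1.65 ± 0.25), Cyr61 (-1.09 ± 0.24), Gadd45a, Odc1 and Dusp4. The 14 heat shock and chaperone genes, which also respond to cell handling, had a median of -0.01 and 0 edgeR calls (3 at an unadjusted p under 0.05), with Hspa5 at 0.23, Hspa8 at 0.03 and Hsp90ab1 at -0.38, and with the block 2 were higher and 4 lower. Between fractions, edgeR called 0 genes of any of the 4 lists in fibroblast-like or ductal-like cells, with or without the block, and 1 gene, of the heat shock list in fibroblast-like cells, had an unadjusted p under 0.05. The heat shock medians were 0.03 in fibroblast-like and 0.10 in ductal-like cells. Between ductal-like and macrophage-like cells, 4 of 14 heat shock genes were higher and 0 lower (median 1.37, against 0.18 over all genes), where 1325 of 11503 genes were higher and 1175 lower.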

How the data were processed

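Cells of 2 tumors, each in 2 sorted fractions, were profiled with a 10x 3′ kit. The deposited tables hold raw UMI counts per gene and barcode, and the submitters' processing notes name CASAVA 1.4, Cell Ranger 2.0.0 and the build mm10. The barcode and symbol tables carry no score or other measured value.

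Barcodes under 500 genes or over 10% mitochondrial UMIs were dropped. A doublet caller marked 27 cells by its own threshold (0.338%), too few to rely on, so the highest scoring cells at 0.8% per 1000 barcodes (152 cells) were left out. Clusters (28, scanpy 1.11.5, leidenalg 0.10.2, Python 3.11.15) were built without the 10 genes and 4 wider lists of response genes, and named from marker lists. The 10 genes, the lists and the markers were chosen with earlier results of these data known.

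UMIs were summed per class and library, over at least 20 cells, or per fibroblast state and tumor. The sums were compared in edgeR 4.0.16 (TMM scaling, quasi-likelihood test, Benjamini-Hochberg adjustment over all genes tested, threshold 0.05, R 4.3.3). DESeq2 1.42.0, other scalings, filters, thinning, left-out libraries and the tumor as a block were alternatives. Fractions were compared over 4 libraries. Libraries of the same tumor deviated together (correlation over genes of 0.70 for whole libraries, 0.64 for fibroblast-like and 0.79 for ductal-like cells), and the shared tumor pairs them. The labels call the tumors biological replicates, and the design text also speaks of technical replicates, whose handling the sources used here leave unstated.

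Of the wider lists, at most the 3 genes with the highest mean level per comparison were named, unless stated. Genes like the members were the 10 with the highest correlation of log2(CPM + 10) over class and library sums, among those with a mean of at least 10. One of them is not reported here. The fits were tested on simulated counts with the same spread for all genes and no difference between tumors. That test cannot show how the fits behave where tumors differ. All cells of sorted CAF 1 were kept although most were ductal-like.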

Additional observations from a re-analysis of the deposited data

How the results depend on the processing

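With DESeq2 size factors, or with doublet calls kept where that was run, the number of members called was the same in each comparison. The fraction differences of some members changed sign under several alternatives, and the cause was not tested. In fibroblast-like cells Dusp1 was -0.0296 with the tumor as a replicate block, Fosb -0.0209 and Egr1 -0.0121 with cells holding leukocyte UMIs left out, and Zfp36 -0.0399 with cells thinned to 5000 UMIs. In ductal-like cells Nr4a1 was -0.00528 and Ier2 -0.00901 with the block, Fos -0.29 and Egr1 -0.15 without cells holding leukocyte UMIs, and Fos -0.18, Egr1 -0.14, Nr4a1 -0.20 and Ier2 -0.0784 with thinning to 5000 UMIs. Between fibroblast-like and ductal-like cells Ier2 was 0.00281 with DESeq2 size factors and 0.00393 in the DESeq2 test, and Fos 9.72e-05 with doublet calls kept.

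Counts of genes called moved more. With the block, which pairs libraries of the same tumor, edgeR called 82 genes between fractions in fibroblast-like cells, 137 in ductal-like cells, 2506 between fibroblast-like and ductal-like cells (1574 without the block) and 1536 between states (412 without it). With no filter on low counts the counts were 61, 2, 2891 and 776 in the same order, 10 for the difference of fraction effects, and 3780 between ductal-like and macrophage-like cells (2500 with the filter). DESeq2 called 437 genes between whole libraries, 18 between fractions in fibroblast-like and 32 in ductal-like cells. Thinning to 1500 UMIs left 937 genes between fibroblast-like and ductal-like cells and 1333 between fibroblast-like and macrophage-like cells (2289 without thinning). It left 1523 between ductal-like and macrophage-like cells and 167 between states. Sums per library, with inflammatory-like sums of tumor 2 alone, gave 966 between states. The median percent of cells with a UMI over members, classes and libraries was 38.3 at 1500 UMIs and 28.5 at 1000 UMIs.

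Leaving out libraries 1 at a time gave, for sorted CAF against all live in fibroblast-like cells, log2 differences of -0.27 to 0.53 for Fos, -0.16 to 0.28 for Fosb, -0.64 to 0.80 for Junb, -0.0648 to 0.25 for Egr1, -0.25 to 0.39 for Zfp36, -0.76 to 0.57 for Dusp1, -0.0985 to 0.26 for Nr4a1 and -0.42 to 0.78 for Ier2, with 0 to 64 genes called. In ductal-like cells the ranges were -0.41 to 0.60 for Fos, -1.23 to 1.09 for Fosb, -0.78 to 0.82 for Jun, -0.14 to 0.0802 for Junb, -0.16 to 0.19 for Egr1, -1.26 to 0.95 for Atf3, -0.66 to 0.11 for Zfp36, -0.93 to 0.23 for Dusp1, -1.26 to 1.23 for Nr4a1 and -0.35 to 0.31 for Ier2. The lone library of a fraction is then assumed to vary like the pair of the other. Leaving out a tumor from a class or state comparison leaves values with no test: -0.91 to 1.05 for Fos, -0.17 to 1.73 for Fosb, -0.12 to 1.15 for Junb, -0.0352 to 1.53 for Zfp36 and -0.56 to 0.43 for Ier2 between fibroblast-like and ductal-like cells, -0.73 to 0.42 for Fos, -1.03 to 0.16 for Atf3 and -0.11 to 0.80 for Ier2 against macrophage-like cells, -0.63 to 0.18 for Fos, -0.87 to 0.41 for Fosb and -0.37 to 0.79 for Jun between ductal-like and macrophage-like cells, and -0.11 to 0.58 for Ier2 between states. With 2 tumors, and with sums of 17 to 36 cells per state and library outside sorted CAF 2, small differences in these genes were not detectable.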
